A study of Mus musculus with 12 samples.

Results

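The omega-oxidation genes described here are 8 genes named by symbol: the CYP4 genes Cyp4a10, Cyp4a14, Cyp4f14, Cyp4f15, Cyp4f16, Cyp4v3 and Cyp4b1, and the aldehyde dehydrogenase gene Aldh3a2. They are 8 of the 47643 genes of the count table and were found by matching Ensembl gene IDs to symbols. Their mRNA was measured by bulk RNA-seq of mouse intestine in 12 libraries, 3 in each of 4 groups. The KO HFD group held male C57BL/6 mice of genotype PparaΔIE on a 60% high-fat diet (HFD), and the WT HFD group held Pparafl/fl mice on that diet. The KO chow and WT chow groups held PparaΔIE and Pparafl/fl mice on chow. All mice were 7 to 8 weeks old and were kept on their diet over 10 days. The name PparaΔIE conventionally denotes mice without Ppara in intestinal epithelial cells, and the WT mice carry floxed Ppara alleles rather than unmodified ones. The labels name neither the recombinase line nor the segment of intestine. Nor do they tell whether each library stands for its own mouse, so the p-values describe variation among these samples only, and that variation may be technical.

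Omega-oxidation is a route of fatty acid breakdown that starts at the methyl end of the chain. CYP4 enzymes of the endoplasmic reticulum place a hydroxyl group on that end, and alcohol and aldehyde dehydrogenases then turn it into a carboxyl group. The resulting dicarboxylic acids are activated to their CoA esters and shortened in peroxisomes. In mouse liver, Cyp4a10 and Cyp4a14 are classical target genes of PPARA, a nuclear receptor for fatty acids encoded by Ppara. The CYP4F enzymes also act on eicosanoids such as leukotrienes.

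Promoter windows were read for 6 of the 8 genes from RefSeq (GRCm38.p6), each holding the 250 bases before the RefSeq start. Those of Cyp4f16, Cyp4b1 and Aldh3a2 are shown because Cyp4f16 passed the diet test in both genotypes, Cyp4b1 had the highest diet fold change of the 5 genes tested in WT, and Aldh3a2 was called between the genotypes. The windows are chr17:32536307-32536556 on the plus strand for Cyp4f16, chr4:115647722-115647971 on the minus strand for Cyp4b1 and chr11:61267187-61267436 on the minus strand for Aldh3a2. The gene spans given below come from GENCODE vM21, which can place the start elsewhere. By those spans the Aldh3a2 window lies wholly inside its gene, which runs to 61267464. The windows of Cyp4f15, Cyp4v3 and Cyp4b1 lie partly inside theirs. Capitals mark matches on either strand to the GC box GGGCGG and the CCAAT box CCAAT.
Cyp4f16: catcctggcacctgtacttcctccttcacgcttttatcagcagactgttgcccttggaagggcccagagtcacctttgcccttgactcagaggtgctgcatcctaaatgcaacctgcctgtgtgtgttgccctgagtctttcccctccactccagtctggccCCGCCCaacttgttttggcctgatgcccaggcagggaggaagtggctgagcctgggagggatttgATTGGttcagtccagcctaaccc
Cyp4b1: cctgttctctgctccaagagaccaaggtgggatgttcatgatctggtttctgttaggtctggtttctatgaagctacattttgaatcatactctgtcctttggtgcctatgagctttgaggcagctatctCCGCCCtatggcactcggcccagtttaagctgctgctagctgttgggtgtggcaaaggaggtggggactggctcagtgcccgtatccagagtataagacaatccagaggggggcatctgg
Aldh3a2: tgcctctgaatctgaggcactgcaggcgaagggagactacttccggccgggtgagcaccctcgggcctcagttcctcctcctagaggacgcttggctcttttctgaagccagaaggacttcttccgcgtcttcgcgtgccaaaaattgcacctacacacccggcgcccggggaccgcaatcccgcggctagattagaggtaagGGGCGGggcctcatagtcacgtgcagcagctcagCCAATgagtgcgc

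The searched motifs did not overlap one another in these 3 windows. The GC box matched in 5 of the 6 windows, those of Cyp4f15, Cyp4f16, Cyp4v3, Cyp4b1 and Aldh3a2, and in 32.742% of 32851 promoter windows of the same length. The CCAAT box matched in 4 of the 6 windows, those of Cyp4f14, Cyp4f15, Cyp4f16 and Aldh3a2, and in 33.85% of all windows. PPARA is known to bind direct repeats of a half-site with a spacer of a single base, the DR1 element. A direct repeat of AGGTCA with any 1 base between the copies was found on neither strand of the 6 windows and in 0.033% of all windows. The looser repeat of AGGNCA was likewise in 0 of the 6 and in 0.338% of all windows, the half-site AGGTCA alone in 0 of the 6 and in 14.024%, and the TATA box TATAAA in 0 of the 6 and in 12.368%.

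Ppara itself had 11.4, 11.1 and 17.3 CPM in KO HFD libraries, against 39.3, 36.6 and 33.7 CPM in WT HFD libraries. CPM are counts scaled by library size. On chow it had 8.42, 15.6 and 13 CPM in KO libraries, against 19.2, 18.1 and 22 CPM in WT libraries. Within each diet, KO and WT libraries did not overlap. The log2 fold change of KO against WT was -1.46 on HFD (SE 0.21, adjusted p = 0.031, edgeR quasi-likelihood test) and -0.68 on chow (SE 0.21, adjusted p = 0.25), so the call was made on HFD alone, which does not show that the 2 diets differed (interaction -0.78, adjusted p = 0.74). In bulk intestine, fewer cells of a type and less RNA per cell cannot be told apart, for Ppara and for every gene below.

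Library totals ran from 33620991 to 53959367 expected counts. Pan-epithelial markers summed to 12300 to 14500 CPM in KO HFD, 13500 to 15200 CPM in WT HFD, 14300 to 17600 CPM in KO chow and 17400 to 17800 CPM in WT chow, and distal ileum markers to 5090 to 6970 CPM over all libraries. Within the ileum list, Fgf15 had 79.5 to 159 CPM in KO HFD and 84.5 to 116 CPM in WT HFD. On chow it had 15.1 to 109 CPM in KO and 12.1 to 16.7 CPM in WT. The hepatocyte list summed to at most 3.60 CPM in any library, and its defining gene Alb reached at most 0.0844 CPM. The WT chow libraries were closer to each other than those of any other group: the coefficient of variation between libraries was 0.14 in KO HFD, 0.146 in WT HFD, 0.152 in KO chow and 0.0583 in WT chow. Over 146 immunoglobulin V genes, the correlation of log2 CPM between WT chow libraries was 0.909 to 0.964, against at most 0.842 between libraries of different groups. WT chow 1 correlated with WT chow 2 and 3 at 0.961 and 0.964, and KO chow 3 correlated with KO chow 1 and 2 at 0.911 and 0.893, while KO chow 1 and 2 correlated at 0.702. WT chow 1 and KO chow 3 thus lay between the others of their group, and results are also given without both. Among any 3 libraries 1 pair is always the least alike, and the HFD groups had such a library too. WT HFD 3 correlated with WT HFD 1 and 2 at 0.747 and 0.788, against 0.719 between those. KO HFD 3 correlated with KO HFD 1 and 2 at 0.744 and 0.812, against 0.737. These were left out only singly.

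Of the 8 genes, 5 passed the filter on low counts and were tested among 17602 genes: Cyp4f14, Cyp4f16, Cyp4v3, Cyp4b1 and Aldh3a2. The intestine expressed some of the CYP4F genes, Cyp4v3 and Cyp4b1, and hardly any CYP4A. Other CYP4F genes were as scarce: Cyp4f15 and Cyp4f37 held 40 and 13 counts over all libraries, against 43 for Cyp4a10. Cyp4f14, which hydroxylates leukotrienes, had the highest level per kb of exon, at 375 ± 43 CPM per kb in KO HFD, 425 ± 17.5 in WT HFD, 336 ± 8.73 in KO chow and 346 ± 4.69 in WT chow (SD, n = 3 each). The order of mean levels per kb was the same in all 4 groups: Cyp4f14, Cyp4f16, Cyp4v3, Aldh3a2 and Cyp4b1. Mean levels in WT HFD were 74.1 CPM per kb for Cyp4f16, 61.1 for Cyp4v3, 35.8 for Aldh3a2 and 27.7 for Cyp4b1.

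Not every step of that order exceeded the spread of the libraries. Cyp4f16 and Cyp4v3 overlapped in KO HFD (44.2 to 67 against 36.1 to 52.6 CPM per kb) and in KO chow (34.7 to 43.4 against 21.9 to 42.9 CPM per kb), and did not overlap in either WT group. Aldh3a2 and Cyp4b1 overlapped in KO HFD (21.7 to 28.6 against 14.3 to 23.6 CPM per kb) and in KO chow (20.1 to 22 against 10.6 to 21.1 CPM per kb). In WT HFD the lowest Aldh3a2 library and the highest Cyp4b1 library both stood at 31.1 CPM per kb.

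Cyp4f14 made up most of the CYP4 transcript level in every group. The 20 CYP4 genes of the table summed to 536 ± 65.5 CPM per kb in KO HFD, 631 ± 16.8 in WT HFD, 467 ± 31.1 in KO chow and 469 ± 8.3 in WT chow (SD, n = 3 each). Cyp4f14 held 70 ± 1.42% of this sum in KO HFD, 67.3 ± 1.17% in WT HFD, 72.1 ± 3.04% in KO chow and 73.9 ± 0.315% in WT chow. The other 19 genes together summed to 161 ± 24 CPM per kb in KO HFD, 206 ± 4.63 in WT HFD, 131 ± 22.5 in KO chow and 122 ± 3.63 in WT chow.

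**Figure D1:**
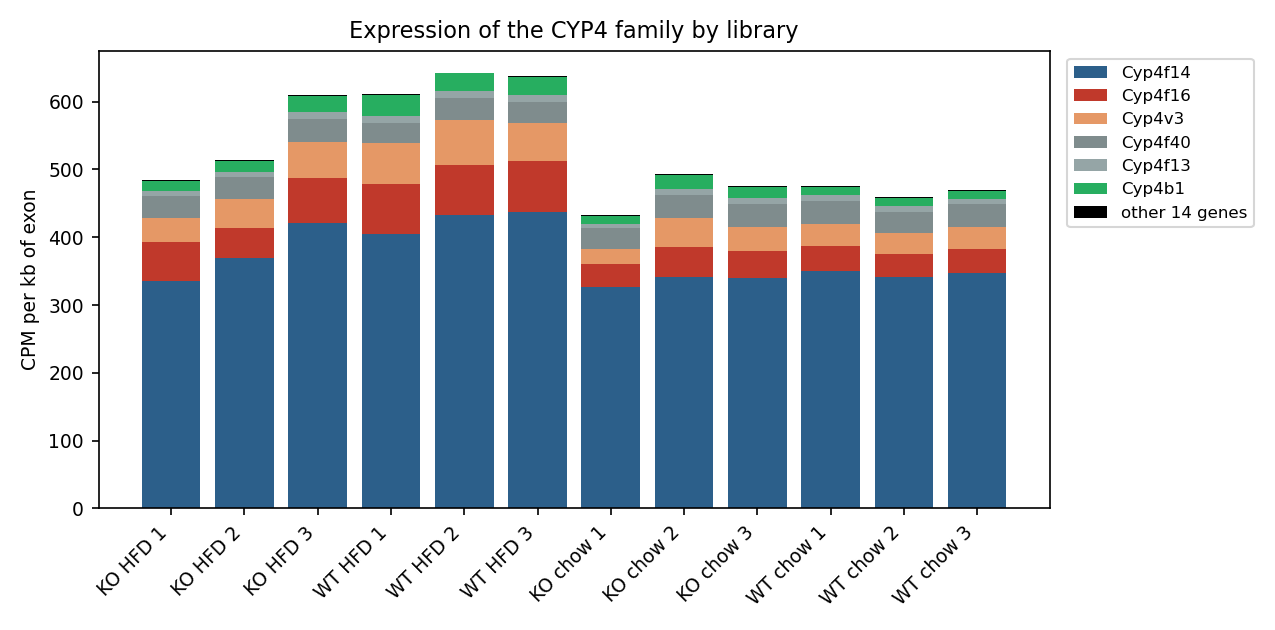
Level of the CYP4 family in each library, in CPM per kb of exon (y axis), stacked by gene along the 12 libraries (x axis). Cyp4f14 is the tallest segment in every library, and the stacks of the WT HFD libraries average 631 CPM per kb, against 469 in WT chow.

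The 3 genes that failed the filter were the CYP4A pair and Cyp4f15. Cyp4a10, a lauric acid omega-hydroxylase, had 38, 3 and 2 counts in the WT HFD libraries and 0 counts in the 9 libraries of the other groups. The WT HFD level was 12.7-fold a floor of 3 counts over the KO HFD group and 16-fold that floor over WT chow. Without WT HFD 1, which holds most of the counts, 5 counts remained in WT HFD, and the ratios were 2.26 and 2.84. The floor allows for counting error in the groups at 0 but not in WT HFD, so these ratios are not lower bounds. An exact two-sided permutation test of KO HFD against WT HFD gave p = 0.1, the smallest that 3 against 3 libraries allow. Of its 100-base windows, 12.2% are shared with Cyp4a32 and Cyp4a31, where the counting could split reads between copies, and these held 2 and 0 counts over all libraries.

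Cyp4a14, the other classical liver gene, had 0 of 461912571 counts over all libraries, which allows up to 0.0065 CPM by counting error alone. Cyp4f15 summed to 6 counts in KO HFD, 14 in WT HFD, 12 in KO chow and 8 in WT chow, and no library held more than 7. A difference of Cyp4f15 was not detectable at this depth.

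All 5 tested genes were called higher on HFD in WT, and 1 of them, Cyp4f16, in KO, where all 5 log2 fold changes were positive. Cyp4f16, a CYP4F hydroxylase gene, had 173, 136 and 206 CPM in KO HFD libraries, against 106, 133 and 123 CPM in KO chow libraries. In WT it had 225, 226 and 232 CPM on HFD, against 113, 105 and 111 CPM on chow. HFD libraries did not overlap chow libraries in either genotype. Cyp4f16 rose 1.42-fold in KO (log2 fold change 0.50, SE 0.12, adjusted p = 0.021, edgeR) and 2.07-fold in WT (1.05, SE 0.12, adjusted p = 0.00029).
The KO call was lost without KO chow 1 (adjusted p = 0.097), KO chow 3 (0.08), KO HFD 1 (0.06) or KO HFD 3 (0.08), and the WT call was kept under all 19 alternative settings.

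Cyp4b1, which hydroxylates medium-chain fatty acids and activates some xenobiotics, had 32.2, 35.7 and 53.2 CPM in KO HFD libraries, against 24, 47.5 and 36.9 CPM in KO chow libraries. In WT it had 70.1, 58.9 and 58.5 CPM on HFD, against 26.3, 27.3 and 25.1 CPM on chow. The diets overlapped in KO and were apart in WT. Cyp4b1 rose 2.38-fold in WT (log2 fold change 1.25, SE 0.24, adjusted p = 0.01, edgeR), and its log2 fold change in KO was 0.16 (SE 0.24, adjusted p = 0.74). Without KO chow 1 or KO HFD 3 the KO value turned to -0.09 and -0.11.

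Cyp4v3 is the mouse counterpart of human CYP4V2, a fatty acid hydroxylase gene mutated in Bietti crystalline dystrophy. It had 137, 165 and 200 CPM in KO HFD libraries, against 83.2, 163 and 132 CPM in KO chow libraries. In WT it had 229, 253 and 215 CPM on HFD, against 124, 115 and 122 CPM on chow. The KO diets overlapped through KO chow 2, and the WT diets did not. Cyp4v3 rose 1.94-fold in WT (log2 fold change 0.95, SE 0.21, adjusted p = 0.014, edgeR), and its value in KO was 0.41 (SE 0.21, adjusted p = 0.24). The WT call was lost without WT chow 1, 2 or 3 (adjusted p = 0.053, 0.053 and 0.056), and KO reached an adjusted p of 0.046 without KO chow 2.

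Aldh3a2 encodes fatty aldehyde dehydrogenase, the enzyme lost in human Sjögren-Larsson syndrome. It had 122, 124 and 161 CPM in KO HFD libraries, against 113, 124 and 116 CPM in KO chow libraries. In WT it had 214, 215 and 175 CPM on HFD, against 133, 123 and 129 CPM on chow. The diets overlapped in KO and did not in WT. Aldh3a2 rose 1.57-fold in WT (log2 fold change 0.65, SE 0.11, adjusted p = 0.0021, edgeR), a call kept under all 19 settings, and its value in KO was 0.21 (SE 0.11, adjusted p = 0.24).

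Cyp4f14 had 812, 892 and 1020 CPM in KO HFD libraries, against 789, 827 and 823 CPM in KO chow libraries. In WT it had 979, 1050 and 1060 CPM on HFD, against 847, 825 and 840 CPM on chow. KO HFD 1 lay within the KO chow range, and all WT HFD libraries were above all WT chow libraries. Cyp4f14 rose in WT by 0.30 on the log2 scale (SE 0.09, adjusted p = 0.04, edgeR), and its value in KO was 0.16 (SE 0.09, adjusted p = 0.29). The WT call was lost without WT chow 1 (adjusted p = 0.13), WT chow 2 (0.13), WT chow 3 (0.12), KO chow 3 (0.076), WT HFD 2 (0.12), WT HFD 3 (0.12) or KO HFD 2 (0.053), and with no filter on low counts (0.056).

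**Figure D2:**
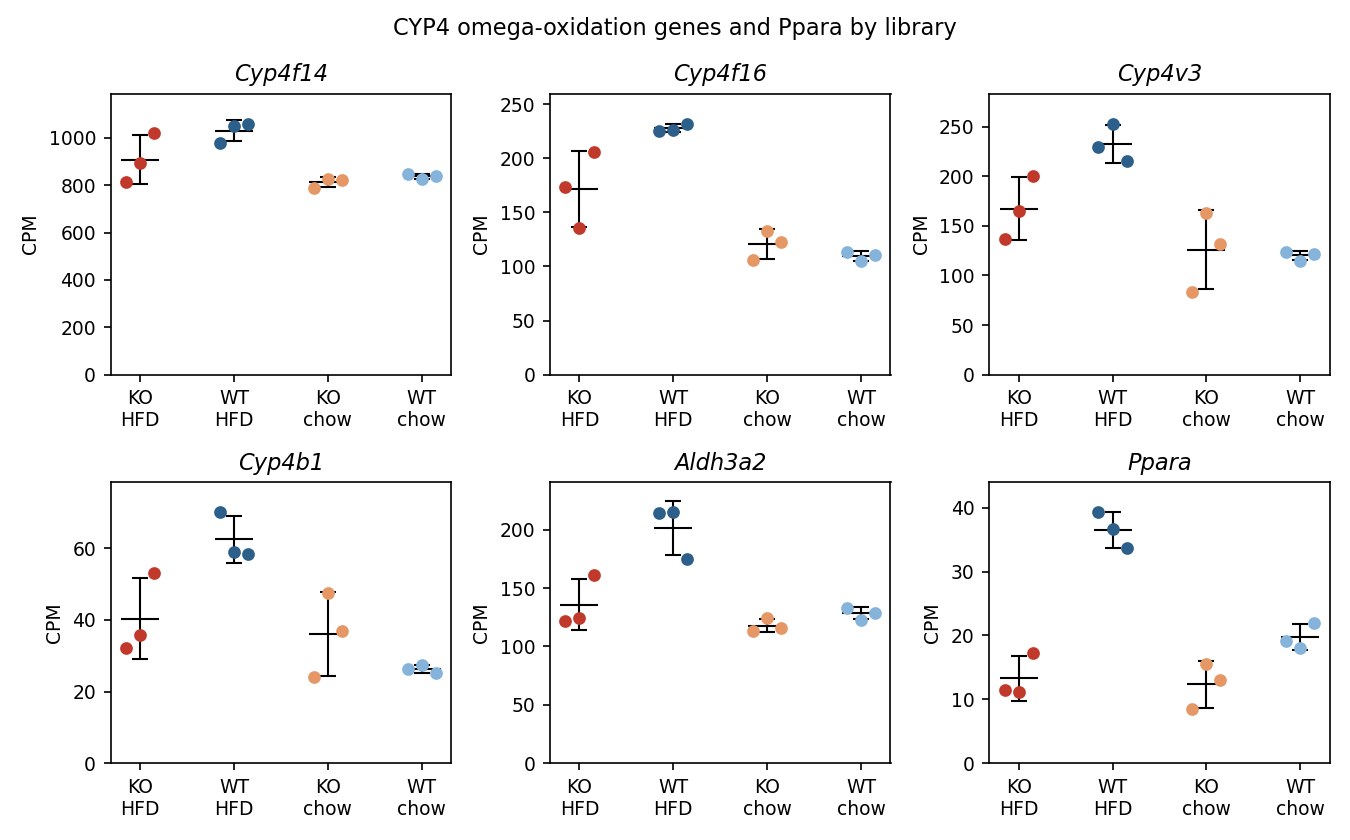
CPM (y axis) of the 5 tested genes and Ppara in each library, by group (x axis), with points for libraries and bars for the mean ± SD of 3 libraries. WT HFD libraries stand above WT chow libraries in all 6 panels, and KO HFD 3 is the highest KO HFD library in each.

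In KO, 1 of the 5 tested genes was called higher on HFD, and in WT 5 of 5 were, where 3.44% of all genes tested were called higher in KO and 6.8% in WT. Groups were apart with HFD higher for 1 of 5 in KO and 5 of 5 in WT, against 12.7% and 19.3% of all genes. The median log2 fold change of the 5 genes was 0.21 in KO and 0.95 in WT, and that of all genes was 0.01 in KO and 0.01 in WT. Without WT chow 1 and KO chow 3, 0 of 5 were called in KO and 2 of 5 in WT. Calls over all genes, in either direction, fell in that setting from 1444 to 185 in KO and from 2353 to 458 in WT. DESeq2 called 1 of 5 in KO and 5 of 5 in WT, against 2122 and 2925 of all 17602 genes in either direction. Unadjusted p was under 0.05 for 1 of 5 in KO. For unadjusted p, the share over all genes is not given here or below.

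The difference between the 2 diet responses was tested as the genotype by diet interaction, and 0 of 5 genes were called, where 0.00568% of all genes were. The interaction was -1.09 for Cyp4b1 (SE 0.34, adjusted p = 0.68, edgeR), -0.55 for Cyp4f16 (SE 0.17, adjusted p = 0.65), -0.54 for Cyp4v3 (SE 0.29, adjusted p = 0.82), -0.44 for Aldh3a2 (SE 0.15, adjusted p = 0.7) and -0.14 for Cyp4f14 (SE 0.13, adjusted p = 0.94). Unadjusted p was under 0.05 for 3 of the 5, and DESeq2 called 0, where it called 57 of all genes. The 2 diet responses are therefore not shown to differ for any of these genes.

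On HFD, KO libraries had less Aldh3a2 than WT libraries. The values were 122, 124 and 161 CPM in KO, against 214, 215 and 175 CPM in WT, and the groups did not overlap. Aldh3a2 fell in KO (log2 fold change -0.57, SE 0.11, adjusted p = 0.042, edgeR). The call was lost without KO HFD 1 (adjusted p = 0.15), KO HFD 2 (0.21), WT HFD 1 (0.11), WT HFD 2 (0.18), KO chow 3 (0.076) or any WT chow library (0.07 to 0.079). It was also lost with a block for replicate number (0.063), with only the groups compared (0.25) and without WT chow 1 and KO chow 3 (0.16), while the log2 fold change stayed between -0.72 and -0.50 over 19 settings. In this comparison 51 of all genes were called in the main fit. That count was 41 with the block, 6 with only the groups compared and 3 without WT chow 1 and KO chow 3. It was 5 without any one WT chow library.

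The other 4 tested genes had negative values that did not pass. The log2 fold change of KO against WT on HFD was -0.63 for Cyp4b1 (SE 0.24, adjusted p = 0.31, edgeR), -0.47 for Cyp4v3 (SE 0.21, adjusted p = 0.36), -0.41 for Cyp4f16 (SE 0.12, adjusted p = 0.19) and -0.18 for Cyp4f14 (SE 0.09, adjusted p = 0.41). Every KO HFD library was below every WT HFD library for Cyp4b1, Cyp4v3 and Cyp4f16, whereas Cyp4f14 overlapped through KO HFD 3. Cyp4f16 reached an adjusted p of 0.028 without KO HFD 3. In all, 1 of 5 was called lower, against 0.187% of all genes, and 4 of 5 were apart with KO lower, against 8.7% of all genes. The median over the 5 genes was -0.47, and that over all genes was -0.0005. Without WT chow 1 and KO chow 3, 0 of 5 were called, where 3 of all 17927 genes were.

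On chow, 0 of the 5 genes were called between KO and WT, where 0.125% of all genes were, and the ranges of the 2 groups overlapped for all 5, where 10% of all genes were apart with KO higher and 12.1% with KO lower. Cyp4b1 had 24, 47.5 and 36.9 CPM in KO, against 26.3, 27.3 and 25.1 CPM in WT, and its log2 fold change was 0.46 (SE 0.24, adjusted p = 0.44, edgeR). The values of the other 4 lay between -0.13 for Aldh3a2 and 0.14 for Cyp4f16. Unadjusted p was under 0.05 for 0 of the 5, and DESeq2 called 0, where it called 188 of all genes. The comparisons on HFD and in WT share the WT HFD libraries, so their values are not independent of each other.

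**Figure D3:**
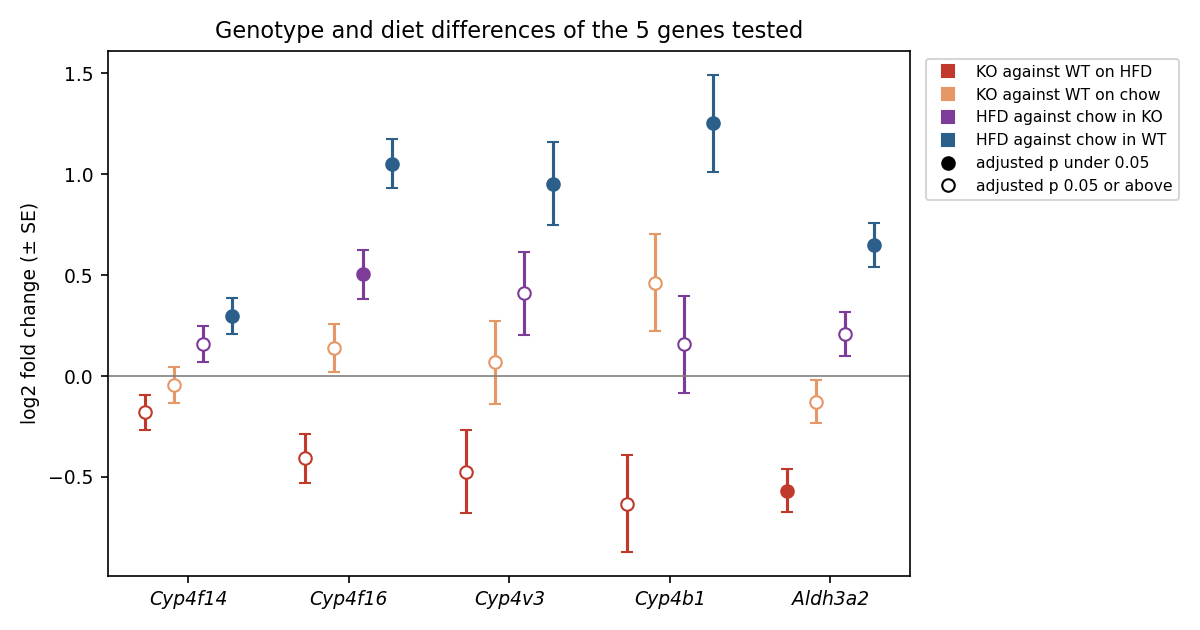
log2 fold change ± SE (y axis) of the 5 tested genes (x axis) for KO against WT on each diet and for HFD against chow in each genotype, with filled points for adjusted p under 0.05. In WT all 5 diet points are filled, between 0.30 and 1.25, and the one filled genotype point is Aldh3a2 on HFD at -0.57.

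Within both KO groups the same library was highest for all 5 tested genes. KO HFD 3 was the highest KO HFD library for all 5 tested genes and for Ppara, and KO chow 2 was the highest KO chow library for all 5 and for Ppara. In WT HFD the highest library differed between the genes, with WT HFD 1 highest for 1 gene and WT HFD 2 and WT HFD 3 for 2 each, and in WT chow it was WT chow 1 for 4 genes and WT chow 2 for 1. The enterocyte gene Lct, a lactase and marker of proximal small intestine, had 50.2, 128 and 144 CPM in KO HFD, 256, 160 and 76.2 CPM in WT HFD, 0.453, 102 and 57.6 CPM in KO chow and 2.24, 2.75 and 2.01 CPM in WT chow. Within KO chow its order was that of the 5 genes, and within KO HFD that of all of them but Cyp4f16. Slc40a1, an iron exporter and the other abundant marker of that list, ran the opposite way to Lct in both KO groups. It had 201, 103 and 150 CPM in KO chow and 150, 142 and 101 CPM in KO HFD. In WT it had 65, 79 and 104 CPM on HFD and 126, 144 and 114 CPM on chow. The 6 proximal markers summed to 204 to 286 CPM in KO HFD, 184 to 331 in WT HFD, 206 to 214 in KO chow and 121 to 151 in WT chow, and 2 of them, Pdx1 and Onecut2, stayed under 1 CPM in every library. The part of this difference in the results was not tested.

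Smooth muscle markers also moved with genotype on HFD. The 10 markers summed to 102 to 131 CPM in KO HFD, 39.4 to 78.3 in WT HFD, 55.2 to 71.4 in KO chow and 71.8 to 74.4 in WT chow, and none was at 0 throughout a group. Of these, 2 of 10 were called higher in KO HFD than in WT HFD, against 18 of the 17602 genes tested. The median log2 fold change of the 10 was 1.20. Mature enterocyte markers summed to 20000 to 25400 CPM in KO HFD and 20000 to 24400 CPM in WT HFD, and 1 of 8, the trehalase gene Treh, was called lower in KO, at 50.7 to 70.7 CPM in KO HFD, against 84.1 to 89.5 CPM in WT HFD. The part of smooth muscle or enterocyte content in the lower Aldh3a2 value was not tested. For HFD against chow, 4 of 10 smooth muscle markers were called higher in KO and 0 of 10 in WT. In each genotype 2 of 8 pan-epithelial markers were called lower, with medians of -0.22 in KO and -0.29 in WT. Of all 17602 genes tested, 606 were called higher and 838 lower in KO, and 1197 higher and 1156 lower in WT. Of 4 endothelial markers, 0 were called in KO and 2 were called higher in WT (medians 0.17 in KO and 0.52 in WT), and of 8 mature enterocyte markers 0 were called in KO and 1 was called higher in WT. Of 5 distal ileum markers tested, 1 was called higher in WT, Fgf15 (log2 fold change 2.79, adjusted p = 0.024, edgeR), and 2 of 5 values were positive. Of 5 proximal markers tested, 1 was called higher in WT, Lct (6.15, adjusted p = 0.028), and 3 of 5 values were positive. For both of these lists 0 were called in KO. The part of all these markers in the diet results was not tested either.

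Pairwise likeness of the 5 genes over the 12 libraries, as Pearson's r of log2(CPM + 0.5), ran from 0.824 to 0.935. The libraries share group and depth differences, so r is a description. Likeness to other genes was ranked among tested genes with an established symbol, which leaves out genes known only by a Gm number, a Rik name or an accession. The genes most like Cyp4f16 were Apoa1 (r = 0.99), Cat (0.984) and Creb3l3 (0.982), and those most like Cyp4b1 were Tsku (0.967), Slc5a4b (0.964) and Homer2 (0.963). For Cyp4v3 they were Slc25a34 (0.977), Slc35c2 (0.976) and Lipe (0.971), for Aldh3a2 Cgref1 (0.976), Hadh (0.971) and Fbp2 (0.969), and for Cyp4f14 Ap2a2 (0.968), Slc3a2 (0.967) and Susd2 (0.967).

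The enzymes around the CYP4 step were described by 4 lists, beginning with the rest of the family. Of 13 other CYP4 genes 5 were tested, and 0 were called in any of the 5 comparisons, with unadjusted p under 0.05 for 1 or 2 genes in each and 0 called by DESeq2. Cyp4f40, the most abundant of them per kb, had 79.3, 81.4 and 84 CPM in KO HFD, 75.1, 80.4 and 76.6 in WT HFD, 76, 84.1 and 85.6 in KO chow and 85.2, 77.7 and 83.1 in WT chow. Its log2 fold change for HFD against chow was -0.01 in KO and -0.08 in WT (adjusted p = 0.97 and 0.45, edgeR). Cyp4f13 had values of 0.09 in KO and 0.27 in WT (adjusted p = 0.64 and 0.089).

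Microsomal P450 enzymes take electrons from P450 oxidoreductase (Por) and cytochrome b5. Por had 95.4, 82.9 and 118 CPM in KO HFD, against 84.8, 96.8 and 95 CPM in KO chow. In WT it had 142, 163 and 125 CPM on HFD, against 91.8, 87.3 and 92.7 CPM on chow, with no overlap. Of 4 electron donor genes, 2 rose on HFD in WT, Por (log2 fold change 0.66, SE 0.12, adjusted p = 0.0038, edgeR) and Cyb5r3, the cytochrome b5 reductase (0.37, adjusted p = 0.019). Among all genes tested, 6.8% were called higher on HFD in WT. In KO 0 of 4 were called, with 1 at unadjusted p under 0.05 and 0 by DESeq2. The WT count was 1 without any one WT chow library, without WT HFD 1 or 2, and without WT chow 1 and KO chow 3. For KO against WT on HFD 0 of 4 were called, with 3 at unadjusted p under 0.05 and 2 lower by DESeq2, and Por stood at -0.54 (adjusted p = 0.087).

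The alcohol and aldehyde dehydrogenases that can follow CYP4 held 8 genes, of which 7 were tested. In WT, 1 of 7 was called on HFD, higher, against 6.8% of all genes tested called higher. This gene, Aldh1a1, a cytosolic retinal and aldehyde dehydrogenase, rose by 0.85 on the log2 scale (SE 0.17, adjusted p = 0.008, edgeR). It had 216, 160 and 285 CPM in KO HFD, 349, 288 and 309 in WT HFD, 135, 172 and 153 in KO chow and 173, 187 and 163 in WT chow. In KO 0 of 7 were called on HFD, with 3 at unadjusted p under 0.05 and 2 by DESeq2, 1 higher and 1 lower. The WT count was 2 without KO chow 1 or KO chow 2 and 0 without WT chow 1 and KO chow 3, and DESeq2 called 2 of 7 higher in WT. Over all 19 settings, Aldh1a1 was called in WT in 18, and Adh1 and Aldh9a1 in 3 each. For KO against WT on HFD 0 of 7 were called, with 4 at unadjusted p under 0.05 and 0 by DESeq2.

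The last list held genes that activate dicarboxylic acids and shorten them in peroxisomes. Of 13 listed genes 12 were tested. On HFD 4 of 12 were called higher in KO and 9 of 12 in WT, with 0 called lower in either. Of all genes tested, 3.44% were called higher in KO and 6.8% in WT. Without WT chow 1 and KO chow 3, the counts were 2 of 12 in KO and 4 of 12 in WT. In KO the other 8 did not pass, and 3 of 12 values were negative. Acaa1b, a peroxisomal thiolase, had 2.53, 1.38 and 3.73 CPM in KO HFD, 17.4, 13.1 and 7.85 in WT HFD, 0.56, 1.05 and 0.755 in KO chow and 0.867, 0.724 and 1.17 in WT chow. It rose by 1.68 on the log2 scale in KO (adjusted p = 0.034, edgeR) and by 3.77 in WT (adjusted p = 0.00034). The KO call of Acaa1b was kept in 10 of 19 settings and the WT call in 19 of 19. Hsd17b4, the D-bifunctional protein of peroxisomal oxidation, rose by 1.15 in KO and 1.66 in WT, and Abcd3, a peroxisomal importer of dicarboxylic acids, by 0.78 and 0.97. Scp2, which encodes a peroxisomal thiolase and a lipid carrier, rose by 0.47 and 0.80. Genes called in WT and not in KO included Slc27a2, Acot4, Crot and Acsl1, between 0.39 and 0.83 in WT, and the interaction called 0 of 12, with 4 at unadjusted p under 0.05 and 1 lower by DESeq2.

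For KO against WT on HFD, all 12 values of that list were negative, and 1 of 12, Acaa1b, fell (log2 fold change -2.34, SE 0.36, adjusted p = 0.031, edgeR). Acaa1b lost this call in 12 of 19 settings, among them without KO HFD 1 or 2, WT HFD 2, KO chow 3 or any WT chow library, and 9 of 12 genes were called without KO HFD 3 and 2 of 12 without WT HFD 3. DESeq2 called 5 of 12 lower. Over all genes, calls in either direction were 51 in the main fit, 173 without KO HFD 3, 103 without WT HFD 3 and 288 with DESeq2. They were 5 to 7 without KO HFD 1 or 2, WT HFD 2, KO chow 3 or any one WT chow library. The median log2 fold change of the list on HFD was -0.34, against -0.47 for the 5 omega-oxidation genes tested. On chow 0 of 12 were called, with 1 at unadjusted p under 0.05 and 0 by DESeq2.

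**Figure D4:**
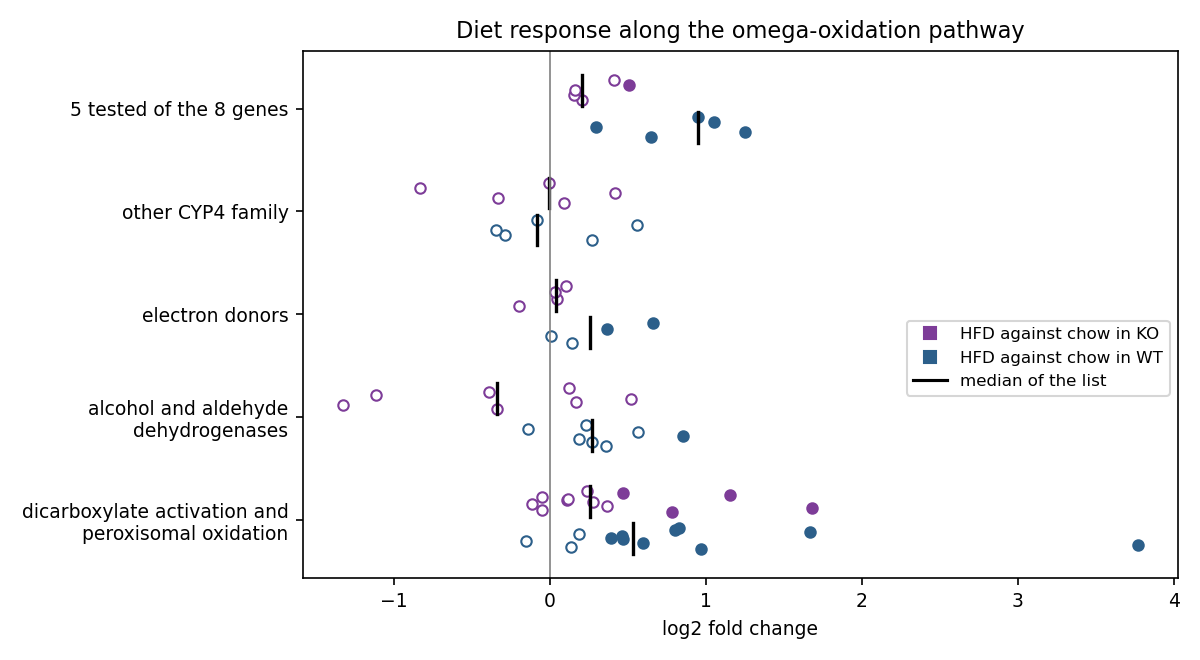
log2 fold change of HFD against chow (x axis) for the tested genes of each list (y axis), in KO above and in WT below, with filled points for adjusted p under 0.05 and black lines for list medians. The 5 omega-oxidation genes have medians of 0.21 in KO and 0.95 in WT, and the other CYP4 genes have -0.01 and -0.08.

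In the annotation of mm10 the 8 genes lie on 4 chromosomes. Cyp4a14 (chr4:115486200-115496142, minus strand), Cyp4a10 (chr4:115518264-115533649, plus strand) and Cyp4b1 (chr4:115624725-115647723, minus strand) are neighbours in the CYP4 cluster of chromosome 4, and of these 3 only Cyp4b1 passed the filter. Cyp4f16 (chr17:32536558-32551798, plus strand), Cyp4f15 (chr17:32685627-32703352, plus strand) and Cyp4f14 (chr17:32905070-32917342, minus strand) lie on chromosome 17, and Cyp4f15 reached at most 0.0926 CPM per kb in a library, while Cyp4f16 and Cyp4f14 averaged 35.8 and 346 CPM per kb in WT chow. Cyp4v3 (chr8:45304944-45333216, minus strand) and Aldh3a2 (chr11:61223417-61267464, minus strand) lie on other chromosomes. Cyp4v3 shares 313 exonic bases with Gm45753 on its strand, which held 0 to 18 counts a library, and of the 100-base windows 6% in Cyp4f16, 5.8% in Cyp4v3 and 3.4% in Cyp4b1 occur in other genes.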

How the data were processed

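RNA was extracted from mouse intestine and made into stranded total RNA libraries, per the labels' protocols. The values the authors deposited are expected counts for each gene, which were not scaled between libraries. Trimmomatic, STAR, Picard, RSEM and mm10 are named in the submitters' processing notes; of the annotation release and strand setting, neither is given in the sources. RSEM splits reads between similar genes, so near-identical copies are uncertain.

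IDs were matched to GENCODE vM21, and 47224 of 47643 had a symbol. Expected counts were rounded (12.3% to 13.2% of values per library were not whole) and tested with edgeR 4.0.16 (TMM, filterByExpr, quasi-likelihood, 1 fit of 4 group means) in R 4.3.3. SE came from the F statistic, and p-values were adjusted over 17602 genes by Benjamini and Hochberg at a threshold of 0.05. On this scale 1 CPM stood for 32.7 to 52.8 counts. The floor of 3 counts covers counting error only, and only where the count was 0. The exact permutation test used SciPy 1.17.1. Motifs were searched on both strands.

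The genes, lists and markers were chosen with earlier results of these data known. The rule for named genes took all 8 genes and the called list members with their neighbours in p. The values of 1 list gene are not reported here. The test was tested on simulated data. Alternatives were DESeq2 1.42.0, its size factors, no filter, 50 counts in 3 libraries, a block for the replicate number, fits of only the groups compared, and libraries left out.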

Additional observations from a re-analysis of the deposited data

How the results depend on the processing

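The tests were repeated under 19 other settings, 12 of which left out 1 library. Of 470 fold changes of single genes, 434 kept their direction and side of the threshold, 31 lost the call, 2 gained it and 3 turned in sign, none of these 3 past the threshold: Cyp4b1 for HFD against chow in KO without KO chow 1 (-0.09) and without KO HFD 3 (-0.11, with a highest value of 0.40 without KO chow 2), and Cyp4v3 for KO against WT on chow without KO chow 2 (-0.17, with a highest value of 0.30 without KO chow 1). For KO against WT on HFD the 1 call became 0 with the replicate block, with only the groups compared and without WT chow 1 and KO chow 3, and 0 to 2 with 1 library left out. For HFD against chow in WT the 5 calls became 2 without WT chow 1 and KO chow 3 and 3 to 5 with 1 library left out, and 4 with no filter on low counts. For HFD against chow in KO the 1 call became 0 with only the groups compared and without WT chow 1 and KO chow 3, and 0 to 2 with 1 library left out. Calls over all genes changed with the setting too. For KO against WT on HFD they were 51 in the main fit and 3 without WT chow 1 and KO chow 3. They were 173 without KO HFD 3 and 288 by DESeq2. The cause was not tested. Libraries with the same replicate number did not deviate together (correlations of -0.111 to 0.143), and with the replicate number as a block, the 5 genes gave 5 calls for HFD against chow in WT and 1 in KO. Depth limits Cyp4a10, Cyp4a14 and Cyp4f15, and 3 libraries a group limit the rest.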
